A study of Saccharomyces cerevisiae with 95 samples.

Results

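The promoters of the genes for the proteins of the small ribosomal subunit were examined in a competition ChIP-seq study of 5 general transcription factors in budding yeast. The genes were taken by name from the R64 (sacCer3) annotation, as every gene called RPS, a number and an optional A or B. There are 56 of them among 6477 annotated genes, 24 A/B paralog pairs and 8 single-copy genes, and 36 of the 56 have more than 1 coding exon. For each gene and factor the binding site nearest to the annotated gene start was taken, its midpoint no more than 500 bp upstream and 200 bp downstream and not over a tRNA gene. A site was found for 48 of the 56 genes in TBP, 48 in TFIIA, 51 in TFIIB, 49 in TFIIE and 52 in TFIIF, 41 genes had a site in all 5 factors, and 2 genes, RPS29A and RPS29B, had one in none. Just inside the window lay the sites of RPS26B in TFIIA at -494.5 bp and RPS25B in TFIIB at -492.5 bp, and just outside it those of RPS29B in TFIIA at -503 bp, RPS8B in TFIIE at -508 bp and RPS14B in TBP at 217.5 bp. Distances are to the annotated gene start, and transcription starts were not used. Every member site passed the filter on low counts. The sites were medians of 428, 823.5, 465, 879 and 403 bp wide in TBP, TFIIA, TFIIB, TFIIE and TFIIF, so a site can also be the nearest to a divergent neighbour, as at RPS15 and RPP2A, RPS16A and RPL13B, RPS16B and RPL13A, or RPS10A and YOR292C.

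In competition ChIP a cell carries 2 copies of a factor with different tags, and one of them is switched on at a known time. Each strain here was a W303 diploid whose first copy bore a 9xMyc tag under its own promoter and whose second copy bore a 3xHA tag under the galactose-inducible GAL1 promoter; the tagged subunit was Toa1 for TFIIA, Tfa1 for TFIIE and Tfg2 for TFIIF, and both subunits of these factors were placed under GAL1. Cells grown in raffinose received galactose to 2% at 0 min, and chromatin was precipitated with each tag at 10, 20 and 25 min, then at 30, 40 and 60 min, and last at 90 and 120 min, with a further Myc library at 0 min used here for TFIIB alone. There was 1 library for each factor, tag and time, so the error of a value below is its spread over the 8 times or its scatter about a trend, and time in galactose cannot be told apart from time of competition. The library totals over all sites ran from 2740185 (TFIIF, HA) to 19483568 reads (TBP, HA), and the lowest count at any site described here was 61, in the TFIIF HA library at 10 min.

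These genes are among the most heavily transcribed in growing yeast, and their output follows nutrient supply through the TOR and protein kinase A pathways. Most of their promoters hold sites for Rap1, an essential DNA-binding factor that brings in Fhl1, Ifh1 and, at many of them, Hmo1, and they are known for relying on TFIID, which carries TBP, while often lacking a consensus TATA element. TBP bends the promoter DNA, TFIIA and TFIIB stabilise it there, TFIIB and TFIIF help to place RNA polymerase II, and TFIIE comes late and recruits the helicase TFIIH. The duplicated genes encode identical or nearly identical proteins, whereas their promoters differ, so that reads can be placed at one copy or the other. Sequence found more than once in the genome, in runs of 50 bp, made up over 5% of the sites of RPS1A, RPS1B and RPS25A alone among the members.

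The upstream sequences of the genes on which the paralog comparisons turn are printed first, 1 strand each in the direction of the gene, from 350 to 51 bases before the gene start, in R64. Capitals mark the Rap1 core CCNTACA on either strand and the TATA elements TATAAAAA, TATAAAAG, TATAAATA, TATAAATG, TATATAAA, TATATAAG, TATATATA and TATATATG on either strand, of which overlapping copies were merged. RPS7A and RPS7B, at chrXV:505444-505743 on the forward strand and chrXIV:444366-444665 on the reverse strand, are shown because the A copy had the higher level of every factor.
RPS7A: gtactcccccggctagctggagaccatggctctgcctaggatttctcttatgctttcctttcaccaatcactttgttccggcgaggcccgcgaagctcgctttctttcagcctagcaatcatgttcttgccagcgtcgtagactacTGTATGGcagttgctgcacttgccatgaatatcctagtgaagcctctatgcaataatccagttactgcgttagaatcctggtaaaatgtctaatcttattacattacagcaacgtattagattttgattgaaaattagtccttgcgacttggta
RPS7B: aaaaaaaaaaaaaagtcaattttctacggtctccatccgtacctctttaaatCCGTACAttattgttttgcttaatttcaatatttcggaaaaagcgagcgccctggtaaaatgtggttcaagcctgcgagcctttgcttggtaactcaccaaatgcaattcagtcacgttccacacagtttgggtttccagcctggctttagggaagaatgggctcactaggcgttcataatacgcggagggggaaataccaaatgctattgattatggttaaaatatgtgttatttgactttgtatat
Either copy holds 1 Rap1 core and no TATA element in this window. A further Rap1 core of RPS7A lay outside it, at -496 bp. The TFIIB levels of the copies differed at every time, and a link to the cores was not tested.

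RPS9A and RPS9B, at chrXVI:404600-404899 and chrII:604158-604457, both on the forward strand, are shown because their TFIIB levels were the farthest apart.
RPS9A: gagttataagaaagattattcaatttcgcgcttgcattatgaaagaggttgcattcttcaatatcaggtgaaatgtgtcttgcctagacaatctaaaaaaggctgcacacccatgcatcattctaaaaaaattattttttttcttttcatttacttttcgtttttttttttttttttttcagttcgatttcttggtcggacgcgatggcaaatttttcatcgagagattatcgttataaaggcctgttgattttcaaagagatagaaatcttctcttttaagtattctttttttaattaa
RPS9B: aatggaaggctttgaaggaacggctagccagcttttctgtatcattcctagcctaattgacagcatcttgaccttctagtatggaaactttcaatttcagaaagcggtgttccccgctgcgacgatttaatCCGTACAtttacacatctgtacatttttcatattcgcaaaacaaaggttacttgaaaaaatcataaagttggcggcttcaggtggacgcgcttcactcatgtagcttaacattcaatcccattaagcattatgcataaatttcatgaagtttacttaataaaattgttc
RPS9B holds 1 exact copy of the Rap1 core and RPS9A holds none. RPS14A and RPS14B, at chrIII:178271-178570 on the reverse strand and chrX:73437-73736 on the forward strand, are shown because they were the farthest apart in TFIIA.
RPS14A: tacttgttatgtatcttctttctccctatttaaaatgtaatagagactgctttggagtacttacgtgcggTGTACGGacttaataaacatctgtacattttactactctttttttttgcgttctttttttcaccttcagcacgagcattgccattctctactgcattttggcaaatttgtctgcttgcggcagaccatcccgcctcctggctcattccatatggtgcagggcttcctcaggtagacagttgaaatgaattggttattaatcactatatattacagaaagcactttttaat
RPS14B: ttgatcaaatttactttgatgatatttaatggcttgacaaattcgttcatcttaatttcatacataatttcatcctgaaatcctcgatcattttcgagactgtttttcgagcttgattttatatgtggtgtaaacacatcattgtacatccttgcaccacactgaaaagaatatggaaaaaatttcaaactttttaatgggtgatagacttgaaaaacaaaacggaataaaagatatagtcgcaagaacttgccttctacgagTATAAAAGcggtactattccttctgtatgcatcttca
RPS14A holds 1 Rap1 core and RPS14B holds 1 TATA element. The single-copy gene RPS12, at chrXV:1028676-1028975 on the reverse strand, is shown because its site had the highest Myc level in 4 of the 5 factors.
RPS12: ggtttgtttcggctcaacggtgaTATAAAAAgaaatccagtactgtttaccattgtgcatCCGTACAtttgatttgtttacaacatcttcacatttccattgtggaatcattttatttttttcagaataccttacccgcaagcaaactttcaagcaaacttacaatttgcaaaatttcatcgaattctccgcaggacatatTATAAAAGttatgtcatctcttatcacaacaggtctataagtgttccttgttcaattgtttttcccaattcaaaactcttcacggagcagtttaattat
It holds 1 Rap1 core and 2 TATA elements in this window. Overlapping TATA copies at -478 and -476 bp lay outside it.

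Over the 500 bp before the gene start, on both strands, the Rap1 core was found at 32 of the 56 genes (57.1%), at 59.8% of the 82 large subunit genes (RPL or RPP) and at 15.8% of 6021 protein-coding genes. There were 52 such cores at a median of -321.5 bp, and 15 of the 56 genes held more than 1. Only exact copies of CCNTACA were counted, so a gene without the core can still hold an inexact copy. TATA elements lay before 19 small subunit genes (33.9%), against 37.8% of the large subunit genes and 52.2% of all genes. The letters GACGCA, a core bound by Fhl1-type forkhead factors in vitro, were found before 10.7% of small subunit, 18.3% of large subunit and 10.9% of all genes. The Rap1 core was therefore more frequent, and the TATA element less frequent, before these genes than before genes at large, while the window of 250 bp before to 50 bp after the start held the core at 17.9% of the members and 8.65% of all genes. Myc levels, as defined in the next paragraph, were similar with and without the core: the medians were 0.70 and 0.52 in TBP, 0.72 and 0.74 for TFIIA sites, 1.68 and 1.66 for those of TFIIB, 1.08 and 1.27 in TFIIE, and 0.72 and 0.78 in TFIIF.

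The level of a factor at a site was expressed as log2 of the counts per bp over the median site of the same library. The small subunit promoters lay near the top of the sites of every factor. Their median Myc level was 0.64, 0.73, 1.66, 1.11 and 0.75 in TBP, TFIIA, TFIIB, TFIIE and TFIIF, which placed the median member at percentiles 90.1, 93.8, 93.9, 94.5 and 94.2 of the sites. The large subunit genes were similar, with medians of 0.73, 0.71, 1.94, 1.14 and 0.78. Of the 41 genes with a site in all 5 factors, 20 were above the 90th percentile in each of the 5. Among them were RPS19A and RPS19B, RPS27A and RPS27B, and the single-copy RPS12, RPS15 and RPS20. The share among other genes with a site in all 5 factors is not given here. The count was therefore not shown to be particular to these genes.

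**Figure D1:**
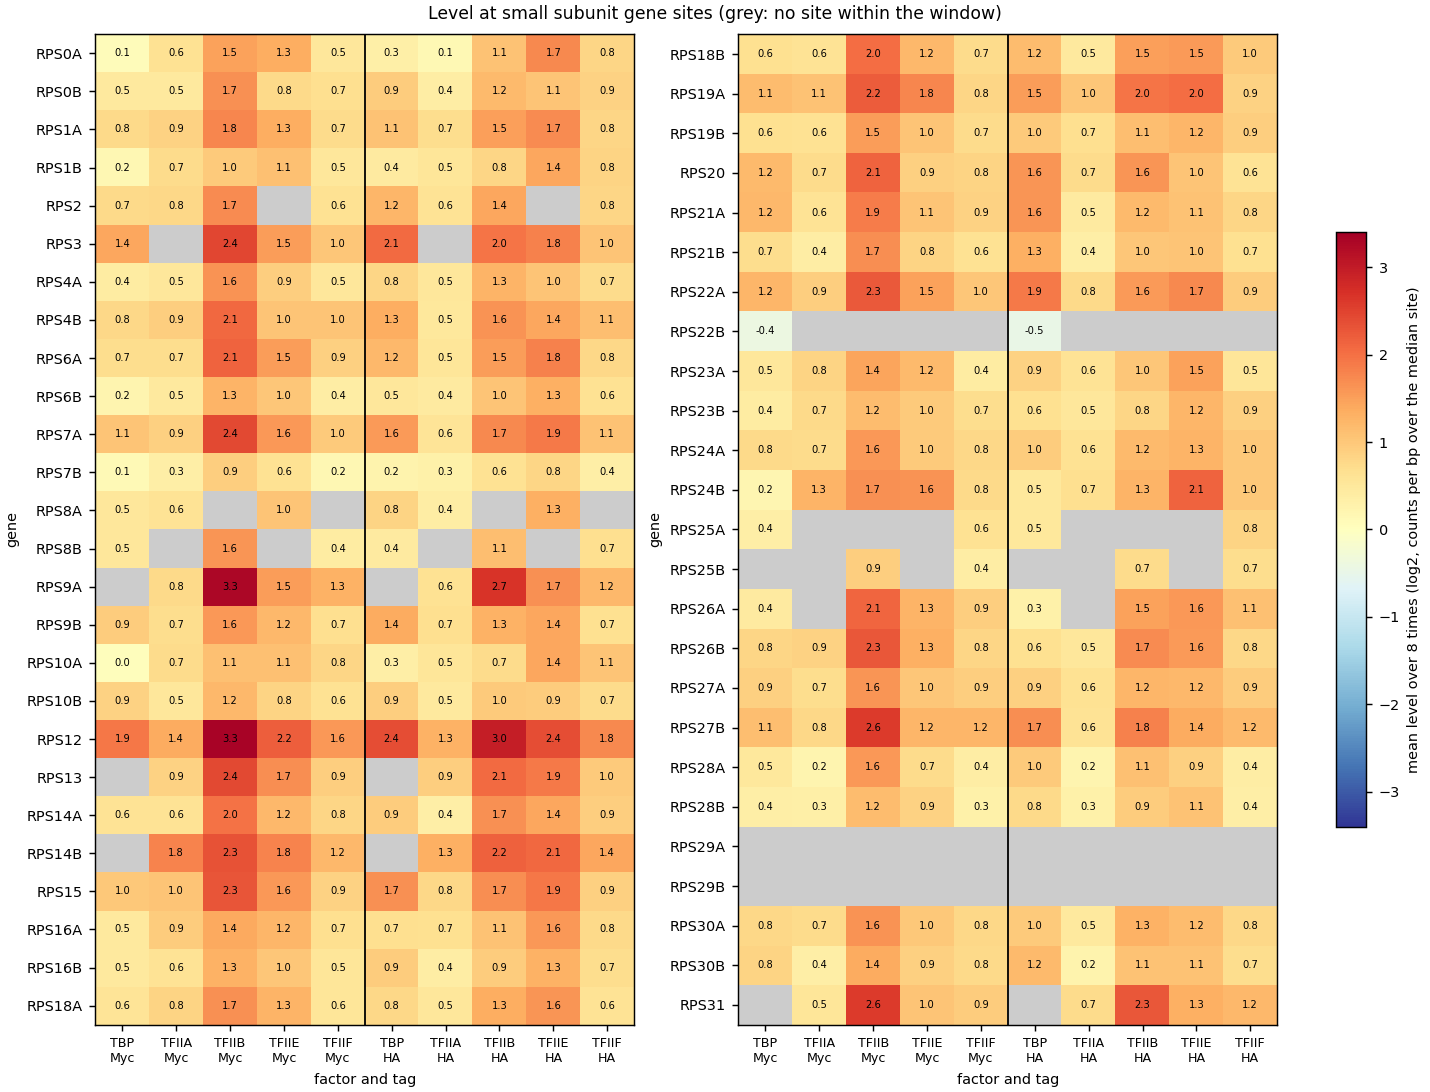
Mean Myc and HA level over the 8 times at small subunit sites, in log2 units of counts per bp relative to the median site of the same library, with a row for each of the genes shown, a column for each factor and tag, and grey where no site lay in the window. TFIIB has the darkest Myc column, with RPS12 at 3.34 and RPS9A at 3.29, and RPS22B in TBP is the one cell below 0 in the Myc columns, at -0.40.

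RPS12, whose protein sits in the head of the subunit, had the highest Myc level of the members in TBP, TFIIB, TFIIE and TFIIF. Its TFIIB Myc level was 2.98 at 0 min and 2.79, 3.20, 3.37, 3.30, 3.13, 3.73, 3.62 and 3.58 at the 8 later times, a mean of 3.34 ± 0.31 (SD, n = 8 times) and rank 12 of 3953 sites. Its TBP Myc level was 1.58, 1.99, 2.04, 2.16, 1.87, 1.83, 2.09 and 1.91, a mean of 1.93 ± 0.18 and rank 14 of 4023. In both factors every time point was above the median member, and the high level was held from the first library to the last. In TFIIA its level of 1.36 ± 0.18 was exceeded by RPS14B alone among the members, at 1.79.

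The other single-copy genes were spread over the range of the members. RPS3, which lines the entry of the mRNA channel, was at 1.41 in TBP, 2.45 in TFIIB, 1.52 in TFIIE and 1.03 in TFIIF. RPS13, RPS15 and RPS20 were at 2.44, 2.31 and 2.13 in TFIIB, and RPS31, which encodes a fusion of ubiquitin to a ribosomal protein, was at 2.59 there but at 0.55 in TFIIA. RPS2 was at 1.70 in TFIIB and at 0.64 in TFIIF. As a class the single-copy genes were above the duplicated ones in the median of each factor, most in TFIIB (2.44 for 8 genes and 1.64 for 43) and TBP (1.17 for 5 and 0.58 for 43), and least in TFIIA (0.78 for 7 and 0.72 for 41). The ranges overlapped in all 5, since RPS9A reached 3.29 and RPS14B 2.33 in TFIIB.

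The lower end was held by RPS7B, which had the lowest Myc level of the members in TFIIB (0.90), TFIIE (0.62) and TFIIF (0.17), and by RPS28A in TFIIA. RPS28A was at 0.45, 0.19, -0.04, 0.33, 0.34, 0.15, 0.16 and 0.32 in TFIIA, a mean of 0.24 ± 0.15, so that even the lowest member of that factor was above the median site at 7 of 8 times. RPS28B, whose protein binds its own mRNA and promotes its decay, was also low, at 0.36, 0.34, 1.16, 0.85 and 0.30 in the 5 factors in the order used above. One gene was below the median site, RPS22B in TBP at -0.40 ± 0.34.

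The TBP sites of 4 genes lay apart from the sites of the other factors. For 51 of the 54 genes with any site, the sites of the different factors shared at least a base. RPS8B, RPS26A and RPS26B were the exceptions, since their nearest TBP sites were narrow (256, 167 and 179 bp) and centred at -39.5, -52 and -51 bp, whereas the sites of the other factors were at -400 to -494.5 bp. At RPS22B the TBP site of 627 bp was centred at -30 bp and was also the nearest to SNR44, the small nucleolar RNA gene in its intron, and the nearest sites of the other 4 factors lay outside the window at -654.5 to -705 bp. For each of these 4 genes another TBP site lay farther upstream, at -401 bp for RPS8B, -440.5 bp for RPS26A, -480 bp for RPS26B and -698 bp for RPS22B. It had the higher Myc level in each case, 0.90 against 0.51, 1.18 against 0.44, 1.63 against 0.80 and 0.97 against -0.40. The 4 genes thus had the greater TBP signal at the distal site of the pair, where the other factors were also found. The site nearest to the annotated gene start was the weaker. Transcription starts were not used, so neither site is placed relative to one.

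The Myc signal at the near TBP sites was followed in time. The Myc level at RPS26B went 0.20, 0.53, 0.78, 0.81, 0.95, 0.97, 1.09 and 1.09, that at RPS8B 0.13, 0.32, 0.26, 0.49, 0.58, 0.75, 0.74 and 0.85, and that at RPS22B -0.95, -0.66, -0.71, -0.40, -0.19, -0.16, -0.05 and -0.09. Slopes were fitted with edgeR over all sites as the log2 change per doubling of time and called at an adjusted p (Benjamini-Hochberg over all sites of the factor) under 0.05. The TBP Myc slope rose at these 3 sites alone among the 48 members, by 0.22 (adjusted p = 0.0421), 0.19 (adjusted p = 0.0421) and 0.25 (adjusted p = 0.0244), where 0.502% of all TBP sites rose and 1.76% fell. The slope of RPS26A was 0.12 and was not called (adjusted p = 0.29). The 3 calls were lost with total counts, with linear time, and without the 10, 25, 60 or 90 min libraries, and 1 was left without 20 or 40 min. The far sites of the 3 genes had Myc slopes of 0.03, 0.15 and -0.02 and none was called (adjusted p = 0.888, 0.167 and 0.891). These 3 near sites also had the lowest HA/Myc slopes of the members, at -0.12, -0.11 and -0.08, against 0.27, 0.15 and 0.27 at the far ones, and without the 4 near sites the 44 remaining slopes were all positive, from 0.05 upwards. These sites were singled out after their values were seen, the difference between near and far sites was not tested, and none of the HA/Myc slopes of either kind was called.

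The HA/Myc ratio compares the induced copy with the resident one at a site. It is given as log2 relative to the median site at the same time. The ratio was taken from read counts without background subtraction or protein levels. Replacement of the resident copy was not separated from the enrichment of each library. The median ratio of the members was below 0 at 10 min for every factor, at -0.40, -0.83, -0.72, -0.29 and -0.73 from TBP to TFIIF in the same order. At 120 min it was 0.39, -0.18, -0.07, 0.94 and 0.85. The courses between differed by factor. In TBP the members crossed 0 between 10 and 20 min, when the number above 0 grew from 4 to 44 of 48. In TFIIE 0 of 49 were above it at 25 min and 47 at 40 min, the TFIIF sites passed from 3 of 52 at 30 min to 52 at 40 min, and in TFIIB only 18 of 51 were above 0 at 120 min.

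**Figure D2:**
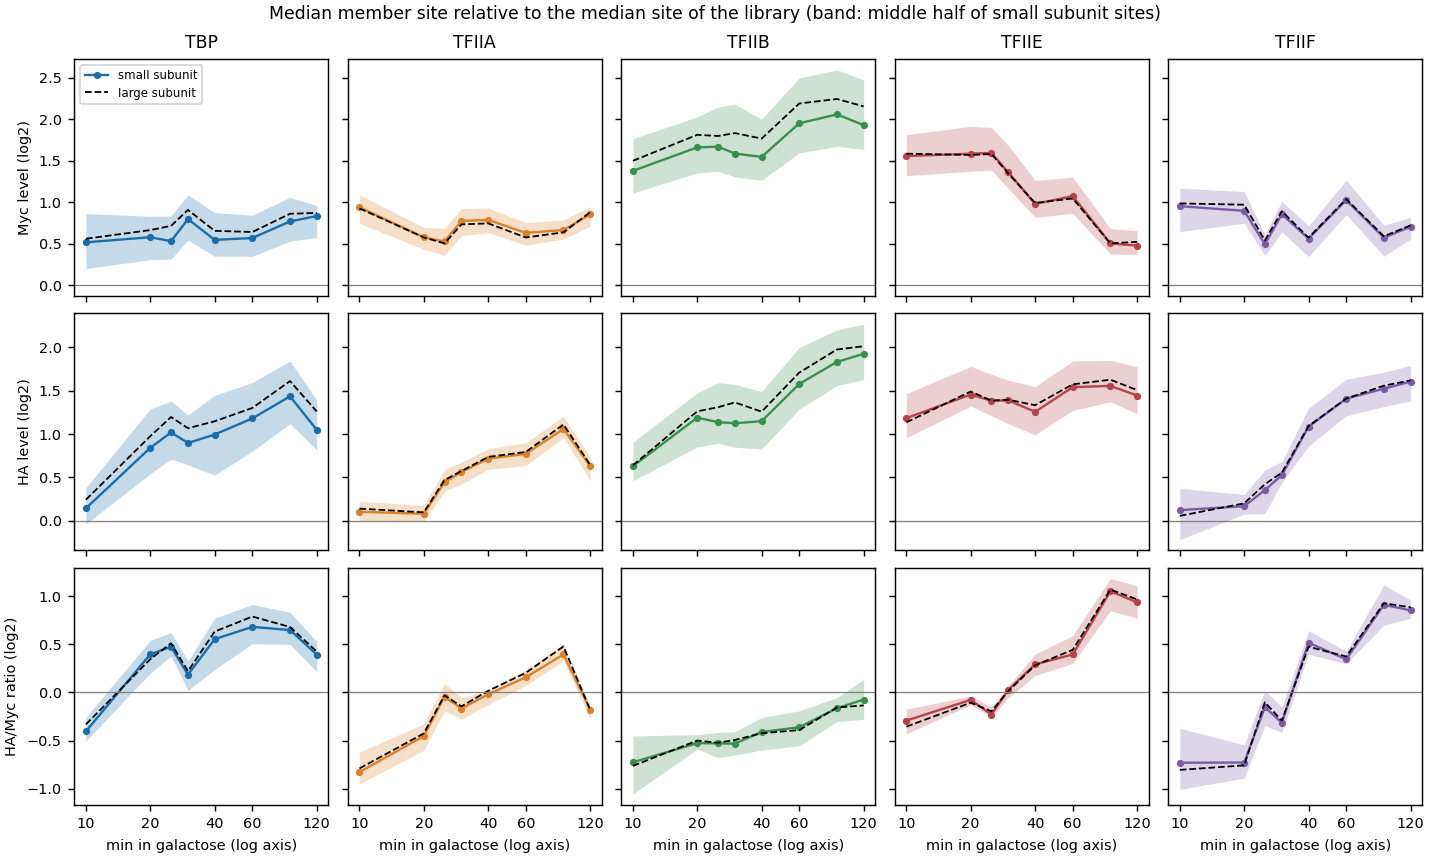
Median Myc level, HA level and HA/Myc ratio of the small subunit sites (solid line, with a band between the quartiles of the sites) and of the large subunit sites (dashed) against time in min on a log axis, in log2 units relative to the median site, for each factor. The TFIIE and TFIIF ratios climb from -0.29 and -0.73 at 10 min to 0.94 and 0.85 at 120 min, and the TFIIB ratio reaches -0.07.

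The slope of the ratio was fitted in each factor, and the factors were not tested against each other. In TFIIE 48 of 49 members rose and none fell, with a median of 0.41 (29.4% of all sites rose and 30.9% fell), and in TFIIF 50 of 52 rose with a median of 0.54 (19.4% and 17.1%). In TFIIA 29 of 48 rose with a median of 0.24 (7.6% and 9.44%). In TBP RPS30A alone of 48 rose, with a median slope of 0.21 (6.64% of all sites, tRNA and mitochondrial ones included, rose and 1.25% fell; 39 of the 2899 sites nearest to a gene rose). In TFIIB none of 51 was called at a median of 0.19, where 0.669% of sites rose and 0.545% fell. In TFIIB all 51 slopes were above 0 (2156 of all 4033 sites). Of the members 23 had an unadjusted p under 0.05, against 681 of all sites. In TBP 26 members had an unadjusted p under 0.05, against 1076 of all 4385 sites and 400 of the 2899 sites nearest to a gene. The DESeq2 Wald test called 6 in TFIIB and 14 in TBP, and its share over all sites is not given here. The large subunit sites had nearly the same medians, 0.21, 0.24, 0.18, 0.42 and 0.56 in TBP, TFIIA, TFIIB, TFIIE and TFIIF, with 1 of 71, 42 of 72, 1 of 81, 70 of 74 and 78 of 79 rising. The difference between the small and the large subunit genes was not tested. The genes of the regulators, among them RAP1, FHL1, IFH1, SFP1 and HMO1, had medians between -0.01 and 0.07 over the 5 factors.

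**Figure D3:**
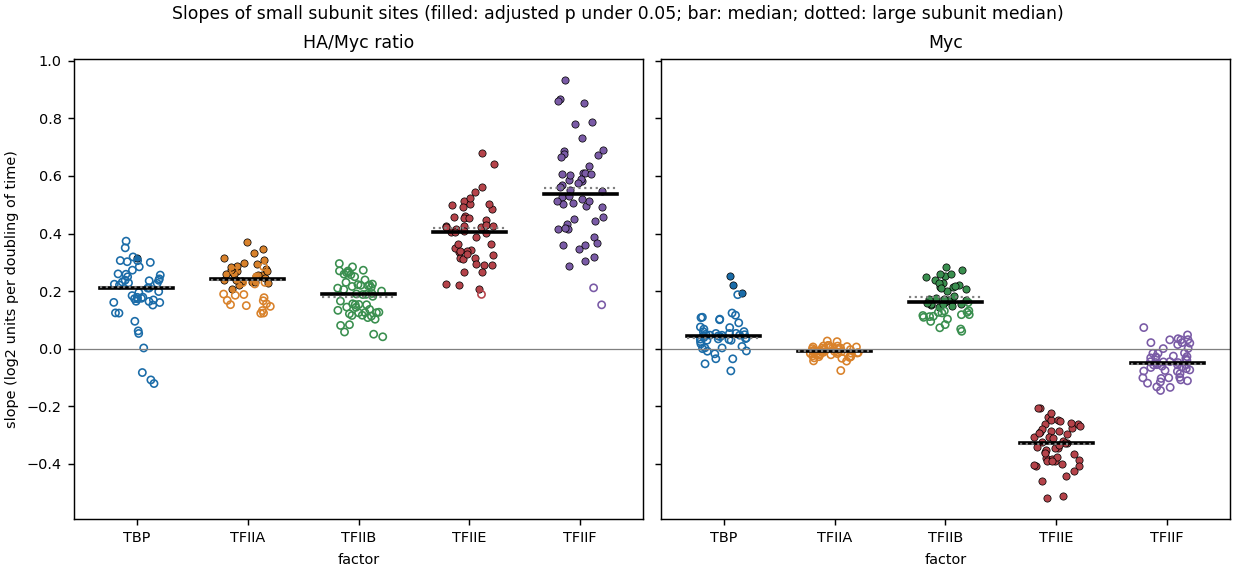
Slopes of the HA/Myc ratio (left) and of the Myc signal (right) at each small subunit site, in log2 units per doubling of time, with sites past the threshold filled, bars at the medians and dotted lines at the large subunit medians. The ratio medians are 0.21, 0.24, 0.19, 0.41 and 0.54 from TBP to TFIIF, and the Myc slopes lie below 0 at all 49 TFIIE sites.

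The rise rested on different tags in different factors. In TFIIE the Myc slope fell at 49 of 49 members with a median of -0.33 (29.4% of all sites fell and 30.9% rose), while the median HA slope was 0.07. In TFIIF the Myc slope was called at no member, with a median of -0.05 (0.711% rose, 0.0547% fell), and the median HA slope was 0.50. The unadjusted p of the Myc slope was under 0.05 at 2 members and at 574 of all 3656 sites. TFIIA had a median Myc slope of -0.01, no call (0.217% and 0.19% of all sites) and a median HA slope of 0.25. The unadjusted p of the Myc slope was under 0.05 at no member and at 445 of all 3685 sites. In TFIIB the Myc slope itself rose at 33 of 51 members with a median of 0.16 (10.8% rose, 9.37% fell), beside a median HA slope of 0.34. Relative to other sites, the Myc copy of TFIIE thus fell at these promoters and that of TFIIB rose at most of them, and no change was called for those of TFIIA and TFIIF.

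The spread of the whole genome's sites moved with several of these results. The quartile range of the Myc level over all TFIIE sites was 0.725 at 10 min and 0.307 at 120 min, that of HA in TFIIF was 0.729 at 10 min, 0.277 at 20 min and 0.684 at 120 min, and that of Myc in TFIIB from 0.845 to 1.08. With a loess offset that removes the trend of the log ratio with site level, the median ratio slopes were 0.06, 0.14, 0.07, 0.04 and 0.25 in TBP, TFIIA, TFIIB, TFIIE and TFIIF. The calls then were 36 of 52 rising in TFIIF, where 419 of 3656 sites rose and 490 fell. The TFIIA calls were 4 of 48 rising, where 110 of 3685 sites rose and 407 fell. Of 49 TFIIE members 13 rose and 4 fell, where 885 of 4473 sites rose and 935 fell. With this offset 13 Myc slopes fell and 2 rose in TFIIE, where 782 of all sites fell and 846 rose. Of the TFIIB Myc slopes 6 rose, where 288 of all sites rose and 358 fell.

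In TFIIE the gene with the steepest ratio was RPS0A, whose protein joins the subunit late and belongs to the family of the laminin receptor precursor. Its ratio went -0.97, -0.17, -0.11, 0.15, 0.66, 0.84, 1.39 and 1.35. Its Myc level fell from 1.98, 1.96, 1.90 and 1.79 at the first 4 times to 1.26, 1.09, 0.40 and 0.37, whereas its HA level was 0.95 at 10 min and between 1.78 and 1.96 from 20 min on. The slope was 0.68 ± 0.05 (SE, adjusted p = 6.49e-06), and it was among the 13 that rose with the loess offset (0.34, adjusted p = 0.000357). RPS24B was next, with ratios of -0.70, -0.03, -0.12, 0.17, 0.69, 1.01, 1.38 and 1.47 and a slope of 0.64 ± 0.05 (adjusted p = 6.95e-06). At both promoters the later 4 times lay above all earlier ones. At the low end RPS21A went 0.05, -0.08, -0.32, -0.33, -0.23, -0.14, 0.63 and 0.56, which was the one slope not called (0.19 ± 0.08, adjusted p = 0.0618). RPS10B followed at 0.21 ± 0.07 (adjusted p = 0.0218), and at -0.00 with the loess offset.

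In TFIIF the steepest was RPS13, whose protein binds the central domain of the subunit's RNA. Its HA counts were 88, 843, 373, 1229, 3463, 7585, 5584 and 5939, while its Myc counts stayed between 1417 and 3816. The ratio went -2.11, -0.92, -0.19, -0.38, 0.83, 0.80, 1.20 and 1.22, a slope of 0.93 ± 0.12 (adjusted p = 4.79e-05; 0.54 and adjusted p = 0.00028 with the loess offset). RPS9A, encoding a protein that enters the subunit early, went -1.97, -1.25, -0.36, -0.48, 0.74, 0.77, 0.66 and 1.10, with a slope of 0.87 ± 0.13 (adjusted p = 0.000105). Both were below 0 up to 30 min and above it from 40 min. RPS25B and RPS10B were the 2 members not called, with 0.73 and 0.35 at 10 min, 0.64 and 0.65 at 120 min and slopes of 0.15 and 0.21 (adjusted p = 0.244 and 0.0916). The 10 min HA library of TFIIF had the lowest total, with 61.9% of its reads on mitochondrial sites, and the number rising was 49 to 51 when any time was left out. Subtraction of a background from each library left 13 of the 50 calls in number, and 24 of 48 in TFIIE. Over all sites the rising calls went from 708 to 129 in TFIIF and from 1316 to 907 in TFIIE.

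In TFIIA the highest slope was that of RPS15, whose protein reaches towards the decoding centre. Its ratio was -1.11, -0.78, -0.27, -0.24, 0.02, 0.13, 0.54 and -0.15, so it climbed to 90 min and was lower again at 120 min. The slope was 0.37 ± 0.08 (adjusted p = 0.0153) and 0.24 with the loess offset (adjusted p = 0.0247). RPS13 had the next slope, 0.35 (adjusted p = 0.0174), and RPS21B and RPS24A the lowest, 0.12 and 0.12, which were not called (adjusted p = 0.194 and 0.234). The drop at 120 min was shared: 48 members were above 0 at 90 min and 2 at 120 min. The TFIIA count of 29 depended on single times. It was 0 without 10 min or without 90 min, 2 without 20 min, 5 without 60 min and 48 without 120 min. The calls over all TFIIA sites in these fits are not given here.

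In TBP the ratio of RPS15 went -0.64, 0.64, 0.63, 0.65, 1.10, 1.23, 1.0 and 0.85, the steepest of the factor at 0.37 ± 0.12, and it was not called (adjusted p = 0.053). RPS12 had a slope of 0.35 (adjusted p = 0.0954). RPS30A went -0.79, -0.02, 0.40, 0.17, 0.35, 0.53, 0.63 and 0.40 and was the member called (0.32 ± 0.09, adjusted p = 0.0417). This call was kept in 2 of the 8 fits that left out a time and was lost with the loess offset (adjusted p = 0.18). The median TBP course was a step between 10 and 20 min followed by values of 0.18 to 0.68. The members called numbered 25 when 120 min was left out. The share of all TBP sites called in that fit is not given here.

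In TFIIB the rise of the Myc level relative to the median site could be followed at RPS21B, whose protein lies on the solvent side of the subunit. Its Myc level was 1.26 at 0 min and then 1.18, 1.35, 1.63, 1.73, 1.29, 2.25, 2.1 and 2.07, with the 3 latest libraries above all earlier ones. The Myc slope was 0.27 ± 0.06 (adjusted p = 0.00912; 0.0223 with the loess offset) and was called whichever time was left out. The 33 Myc calls fell to 6 without 10 min, 12 without 90 min and 17 without 120 min, and to 6 with the loess offset. For the TFIIB ratio the steepest member was again RPS0A, at -0.77, -0.58, -0.51, -0.67, -0.70, -0.12, -0.11 and 0.28, with a slope of 0.30 ± 0.08 (adjusted p = 0.0727), and RPS20 and RPS16A were the lowest of those that kept their sign whichever time was left out, at 0.08 and 0.10 (adjusted p = 0.672 and 0.598).

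The A and B copies of a pair often held different amounts of a factor. Both copies had their own site for 20 pairs in TBP, 19 in TFIIA, 20 in TFIIB, 20 in TFIIE and 21 in TFIIF. The Myc level of one copy was above the other at 8 of 8 times in 13, 16, 12, 14 and 12 of them, with A the higher in 9, 11, 7, 10 and 7. The median difference in size was 0.36, 0.22, 0.37, 0.23 and 0.20 log2 units. Of 17 pairs with both sites in all 5 factors, 9 had the same sign of the mean difference in each: A was higher in 7, among them RPS1, RPS6, RPS7, RPS16, RPS19 and RPS21, and B in 2, RPS4 and RPS27. Counted per site, RPS1 and RPS21 no longer had 1 sign in all factors. RPS6 and RPS7 kept their side at every time in every factor. These levels were compared as a description, with no test. The counts of pairs on one side are not given for other A/B-named pairs, and were not shown to be particular to these genes.

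**Figure D4:**
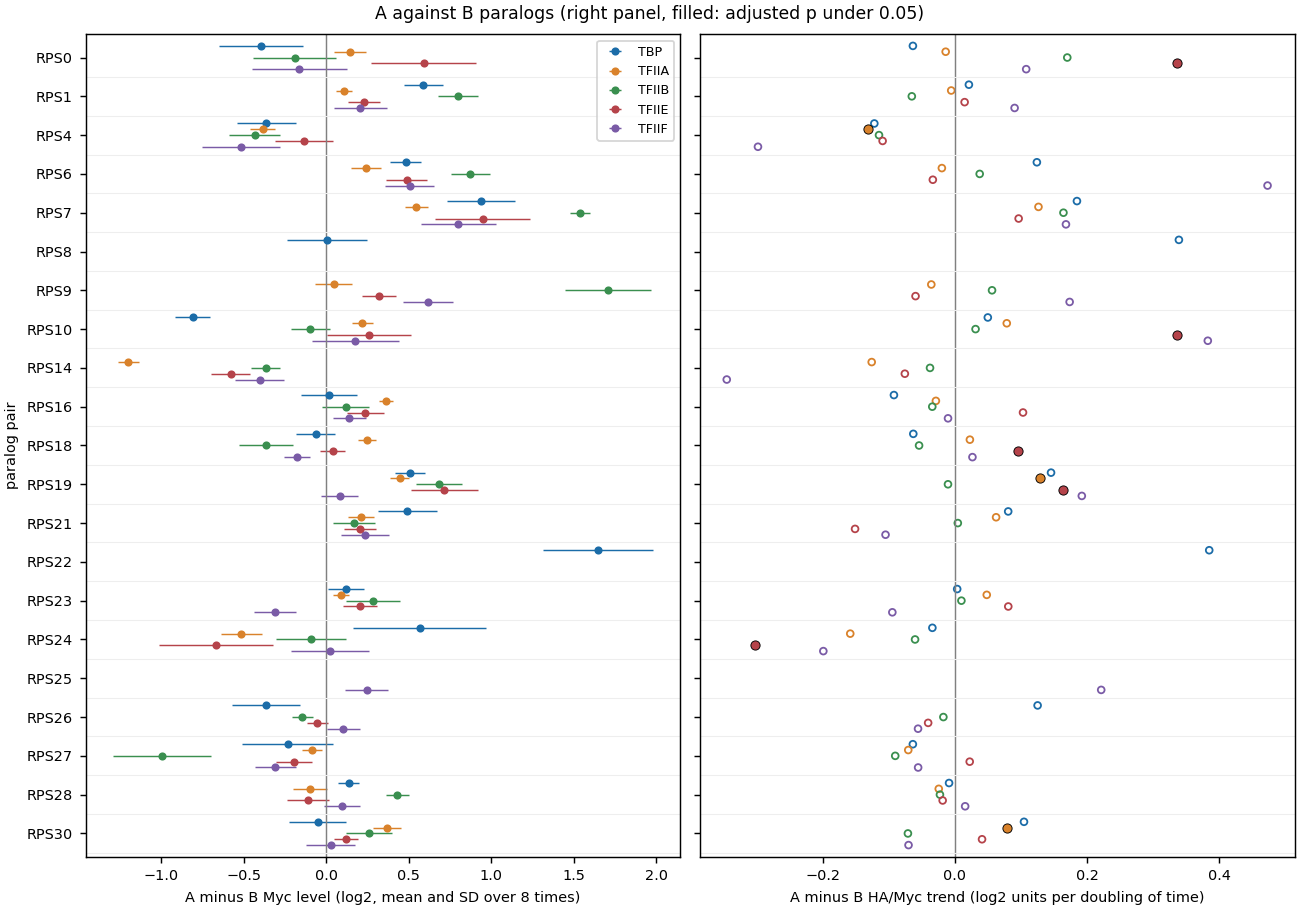
A minus B for the paralog pairs shown, by factor: on the left the Myc level in log2 units, with the mean and SD over the 8 times, and on the right the trend of the HA/Myc ratio in log2 units per doubling of time, filled where called. On the left RPS7 is above 0 in all 5 factors, RPS9 reaches 1.71 in TFIIB, and RPS14 lies at -1.20 in TFIIA.

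RPS7 was the most constant case. The protein lies on the solvent side of the subunit and is ubiquitinated by Not4. In TFIIB RPS7A was at 2.13, 2.39, 2.36, 2.24, 2.33, 2.59, 2.81 and 2.70 and RPS7B at 0.66, 0.82, 0.77, 0.78, 0.82, 0.96, 1.29 and 1.13, so the groups of times did not overlap. The difference was 1.54 ± 0.06 in TFIIB (SD, n = 8 times), 0.94 ± 0.21 in TBP, 0.55 ± 0.07 in TFIIA, 0.95 ± 0.29 in TFIIE and 0.80 ± 0.23 in TFIIF. With counts per site in place of counts per bp it was 1.78, 0.86, 0.81, 0.86 and 1.06. RPS6, the target of TOR-dependent phosphorylation, differed the same way by 0.48, 0.24, 0.87, 0.49 and 0.51 from TBP to TFIIF.

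RPS9 differed most in TFIIB. RPS9A had TFIIB Myc levels of 2.73, 2.85, 3.43, 3.36, 2.95, 3.89, 3.49 and 3.65 and RPS9B 1.25, 1.56, 1.65, 1.45, 1.47, 1.85, 1.67 and 1.78. The difference was 1.71 ± 0.26, and 0.04 ± 0.11 in TFIIA, 0.32 ± 0.10 in TFIIE and 0.62 ± 0.15 in TFIIF, while RPS9A had no TBP site in the window. Its TFIIA and TFIIE sites were wide, and counted per site the difference was 1.61 in TFIIB, 0.93 in TFIIA, 1.17 in TFIIE and 1.38 in TFIIF, so much of the contrast between factors lay in the width of the sites. The printed RPS9A window, without an exact copy of the Rap1 core, thus stood upstream of the copy with more TFIIB. Inexact copies were not searched for. The RPS9B site was also the nearest to NTC20. Whether the gap differed between factors was not tested.

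RPS14 was the strongest case for B. Its protein represses RPS14B by binding the intron of that pre-mRNA, and RPS14B is the minor copy. In TFIIA RPS14B was at 2.01, 1.61, 1.52, 1.89, 1.92, 1.72, 1.74 and 1.91 and RPS14A at 0.73, 0.49, 0.42, 0.63, 0.65, 0.53, 0.54 and 0.72. A minus B was -1.20 ± 0.07 in TFIIA, -0.37 ± 0.09 in TFIIB, -0.58 ± 0.12 in TFIIE and -0.40 ± 0.15 in TFIIF, and per bp B was above A at 8 of 8 times in each. The TFIIA site of RPS14A was 1643 bp wide, which lowers its counts per bp. Counted per site the difference was -0.57 in TFIIA, -0.96 in TFIIB, -0.06 in TFIIE and -1.37 in TFIIF, so the copies were about equal in TFIIE and farthest apart in TFIIF. The RPS14B site was also the nearest to SOP4, so that its signal cannot be assigned to one of these genes.

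Other pairs depended on the factor. RPS24A exceeded RPS24B by 0.57 ± 0.40 in TBP, and RPS24B exceeded RPS24A in TFIIA (-0.51 ± 0.12) and TFIIE (-0.67 ± 0.35), with -0.09 and 0.02 in TFIIB and TFIIF. RPS27A was below RPS27B by 1.0 ± 0.30 in TFIIB and by 0.08 to 0.31 in the other 4. RPS30, whose mammalian homologue is made as a ubiquitin-like fusion and whose B copy shares its site with FYV12, had A at 0.77, 0.74, 1.64, 1.01 and 0.79 and B at 0.83, 0.37, 1.38, 0.88 and 0.76 from TBP to TFIIF. The widest TBP difference, 1.65 ± 0.34 for RPS22, set RPS22A at 1.25 against the near TBP site of RPS22B, and the site of RPS22A was also the nearest to RPL39 in TFIIA, TFIIB and TFIIE.

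Whether paralogs diverged in time was tested by permuting the 8 times of the A minus B difference exactly, two-sided, over the 40320 orders, with p adjusted over all A/B-named gene pairs with their own sites in the factor, ribosomal or not. In TFIIE 6 of 20 small subunit pairs diverged in the ratio, where 49% of the 51 pairs did, so the share was not above the background. In TFIIA 3 of 19 did, RPS4, RPS19 and RPS30, where 18% of 50 did. None did in TBP (0% of 50), TFIIB (0% of 56) or TFIIF (3.57% of 56). The unadjusted p was under 0.05 for 3, 0 and 7 small subunit pairs there. Over all pairs it was so for 6 of 50, 4 of 56 and 23 of 56. For the Myc trend 5 of 20 diverged in TFIIE (29.4%) and none in TBP (4%), TFIIA (0%), TFIIB (0%) or TFIIF (0%). In TBP, TFIIA, TFIIB and TFIIF 3, 1, 0 and 2 small subunit pairs had an unadjusted p under 0.05. Over all pairs the numbers were 9 of 50, 5 of 50, 4 of 56 and 8 of 56.

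**Figure D5:**
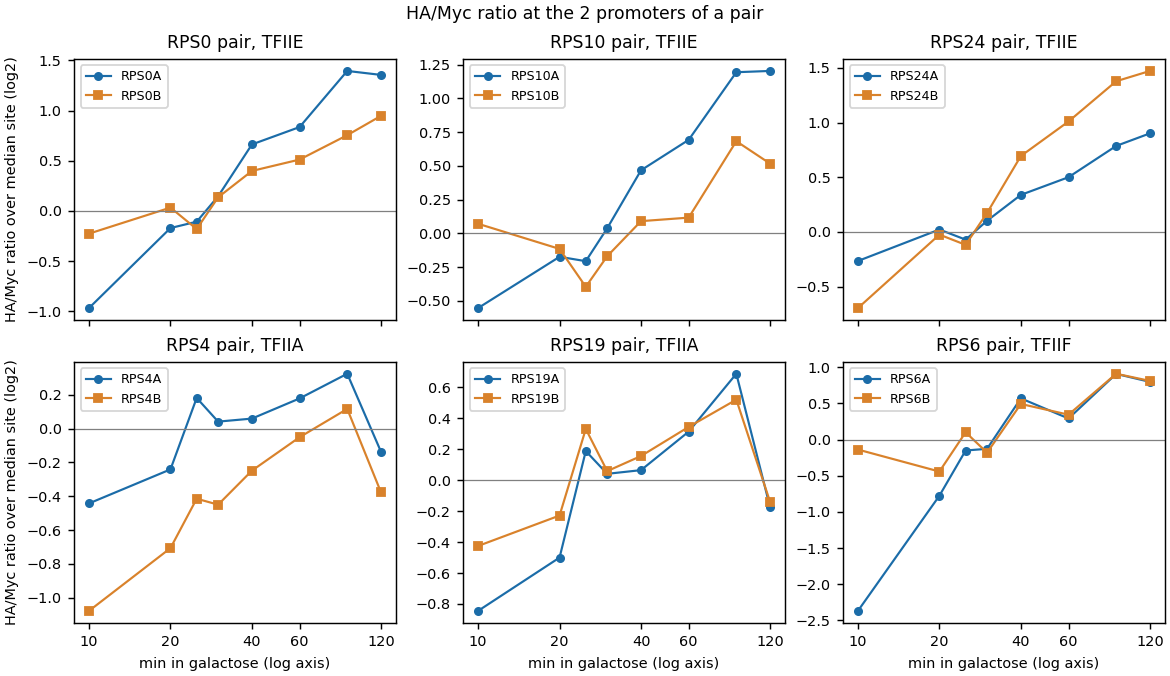
HA/Myc ratio of the A and B copy of 6 pairs against time in min on a log axis, in log2 units relative to the median site at the same time: RPS0, RPS10 and RPS24 in TFIIE, RPS4 and RPS19 in TFIIA, and RPS6 in TFIIF. In TFIIE RPS10A goes from -0.55 to 1.20 and RPS10B from 0.07 to 0.52, and in TFIIF RPS6A starts at -2.37 and RPS6B at -0.14.

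RPS10, RPS0 and RPS24 diverged most in TFIIE. RPS10A, for a protein of the subunit head, went -0.55, -0.17, -0.21, 0.04, 0.47, 0.69, 1.19 and 1.20 and RPS10B 0.07, -0.12, -0.40, -0.17, 0.09, 0.12, 0.68 and 0.52, a trend difference of 0.34 per doubling of time (exact permutation p = 7.44e-05, adjusted p = 0.00101). RPS0B went -0.23, 0.03, -0.18, 0.14, 0.40, 0.51, 0.75 and 0.95, below RPS0A from 25 min on, with a trend difference of 0.34 (exact permutation, adjusted p = 0.00285). For RPS24 the B copy was the steeper: RPS24A went -0.27, 0.02, -0.07, 0.10, 0.34, 0.50, 0.79 and 0.90, and A minus B was -0.30 (adjusted p = 0.00101 by exact permutation). RPS19 and RPS18 were also called, at 0.16 and 0.10 (adjusted p = 0.00573 and 0.0213 by exact permutation). In the Myc signal RPS0, RPS7, RPS10 and RPS24 were among the pairs called in TFIIE, at -0.24, -0.22, -0.19 and 0.24. RPS0, RPS10 and RPS24 were called on both measures, which share their Myc libraries. No loess offset was applied to the paralog trends, in the ratio or in Myc. The mean A minus B Myc levels of RPS0, RPS7, RPS10 and RPS24 in TFIIE were 0.59, 0.95, 0.26 and -0.67. Each was opposite in sign to the Myc trend of the pair. Whether the trends followed the level was not tested. The Myc calls numbered 0 without 120 min, 1 without 60 min, 3 without 20 or 40 min and 10 without 10 min, and the ratio calls numbered 2 with linear time.

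In TFIIA RPS4 diverged by -0.13 (adjusted p = 0.0312 by exact permutation). RPS4A went -0.44, -0.24, 0.18, 0.04, 0.06, 0.18, 0.32 and -0.14 and RPS4B -1.08, -0.71, -0.41, -0.45, -0.25, -0.05, 0.12 and -0.38, so the B copy started lower and was lower at all 8 times. RPS19 and RPS30 diverged by 0.13 and 0.08 (adjusted p = 0.0397 and 0.031 by exact permutation). No TFIIA pair was called without 10, 20, 60 or 90 min, and 7 were without 120 min. In TFIIF the largest trend was that of RPS6 at 0.47 (adjusted p = 0.0804 by exact permutation), where at 10 min RPS6A was at -2.37 with 61 HA reads and RPS6B at -0.14 with 158. RPS22 had the largest trend in TBP, 0.38 (adjusted p = 0.488 by exact permutation), and it too rested on the near TBP site of RPS22B.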

How the data were processed

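Per the labels, the authors aligned reads to sacCer3 with Bowtie2 2.2.6, called sites with MACS2 2.1.0.20151222 on early Myc libraries against input, and merged and counted them with bedtools. The deposited values are raw read counts per site, 81 columns of 95 samples; the 10 input libraries and 4 further Myc 0 min libraries were not analysed here. Library totals, 2740185 to 19483568 reads, include 0% to 61.9% on mitochondrial sites and 3.4% to 43.7% on ribosomal DNA sites.

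Counts were fitted with edgeR 4.0.16 (R 4.3.3) by its quasi-likelihood test, with TMM scaling and a mean of at least 10 counts. The ratio model held a block for each time, so that HA and Myc libraries of a time were paired, plus tag and tag by log2 time. Adjusted p-values are Benjamini-Hochberg values over all sites of a factor. Levels were set against the median nuclear site outside ribosomal DNA and tRNA genes (3402 to 4302 sites a factor). Paralog trends used a pseudocount of 0.5 counts and exact permutation over the orders of the times, whose smallest p is 2.48e-05. Scripts were tested on simulated data. Tables were made with Python 3.11.15, numpy 2.4.6 and pandas 2.3.3. Promoter windows were read from the R64 genome.

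Members and lists were chosen with earlier results of these data known. Values by time are given for the 2 members with the highest and the 2 with the lowest ratio slope in a factor (mean of at least 50 counts, sign kept whichever time was left out), the highest and lowest Myc level, the pairs with the largest differences, RPS9, RPS14, RPS22, RPS28, RPS30 and the single-copy genes. The values of some members are counted but not reported here by name. RPS0B, RPS19, RPS26 and other genes outside this rule were named after their values were seen. The HA slope and the 500 bp motif window were also added later. The alternatives were DESeq2 1.42.0 size factors and its Wald test, total counts, a loess offset, no count filter, linear time and counts per site. Others were another pseudocount, a narrower window (250 bp upstream to 100 bp downstream), sites without repeated sequence, no block, and each time left out. A background, the 5th percentile of site density, was also subtracted, and the log ratios were then fitted with limma 3.58.1 in place of edgeR.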

Additional observations from a re-analysis of the deposited data

Results flagged for a closer look

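In TBP the 10 min library lay apart from the other 7 times. The median HA level of the small subunit sites was 0.14 at 10 min and 0.84 to 1.44 afterwards, a gap of 0.54 of the whole range, past the critical value of Dixon's test. The median HA/Myc ratio was -0.40 at 10 min and 0.18 to 0.68 afterwards, a gap of 0.542 of the range. The 2 values share the same HA library, and 15 medians were examined in this way. Chance alone marks about 1 in 20 where the values have no trend. These values follow a time course, so the flag cannot tell an odd library from the course itself.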

How the results depend on the processing

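DESeq2 size factors, no count filter, the narrower window, a pseudocount of 5 and leaving out repeated sequence moved no count by over 1.5 times, and no direction reversed. Beside the main 1, 29, 0, 48 and 50 rising ratios (TBP, TFIIA, TFIIB, TFIIE, TFIIF), the Wald test gave 14 in TBP and 6 in TFIIB. Its share over all sites is not given here. Background subtraction, fitted with limma on log ratios, gave 0, 0, 0, 24 and 13 in the same order. Of all sites 0, 0, 1, 907 and 129 then rose. The median slopes of the members were then 0.24, 0.41, 0.10, 0.29 and 0.71, against 0.21, 0.24, 0.19, 0.41 and 0.54 in the main fit. Linear time gave 0 in TBP and TFIIA. Total counts shift the median of all sites by -0.15 in TBP and 0.51 in TFIIF. They gave 0 rising and 2 falling in TBP, 48 in TFIIA and 3 in TFIIB. Over all sites they gave 248 rising and 990 falling in TBP, 1388 and 153 in TFIIA, and 85 and 12 in TFIIB. The loess offset gave 0 rising and 3 falling in TBP, 4 in TFIIA, and 13 rising and 4 falling in TFIIE. Over all sites it gave 26 rising and 118 falling in TBP, 110 and 407 in TFIIA, and 885 and 935 in TFIIE. Without the time block that pairs HA with Myc, TBP had 0 and TFIIA 35. The shares over all sites with linear time or without the block are not given here. For Myc slopes, TBP (3) had 0 with linear time, total counts or the 4 near sites left out; TFIIB (33) had 14 with linear time, 6 with loess and 21 with total counts; TFIIE (49 falling) had 13 falling and 2 rising with loess. Linear time gave 1 TFIIA and 2 TFIIE ratio pairs (3 and 6) and 10 TFIIE Myc pairs (5). Median Myc levels were 1.37, 1.82, 2.26, 2.14 and 1.21 with counts per site and 1.17, 1.64, 2.1, 2.22 and 1.60 with background subtraction. Apart from the construction of each alternative, the cause was not tested.

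With each time left out, rising ratios numbered 0 to 25 (TBP), 0 to 48 (TFIIA), 0 to 5 (TFIIB), 44 to 49 (TFIIE) and 49 to 51 (TFIIF). Myc calls ranged over 0 to 3 in TBP, 6 to 33 in TFIIB and 46 to 49 in TFIIE. Ratio pairs ranged over 0 to 7 in TFIIA and 5 to 9 in TFIIE, and Myc pairs over 0 to 10 in TFIIE. The shares over all sites or all pairs in these fits are not given here. Median Myc levels ranged over 0.61 to 0.67, 0.69 to 0.75, 1.63 to 1.72, 1.05 to 1.22 and 0.69 to 0.78.

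With 1 library per factor, tag and time, a lone library cannot be told apart from its time, and sites of differing width limit comparisons between paralogs.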
